A study of Mus musculus with 12 samples.

Results

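The intercalated disc is the junction that joins cardiac myocytes end to end, and 10 of its genes were followed here in whole-heart RNA from mice with altered Lemd2, which encodes a protein of the inner nuclear membrane. They were chosen by symbol: Dsp, Pkp2, Jup, Dsg2 and Dsc2 for the desmosome, Cdh2, Ctnna1, Ctnna3 and Ctnnb1 for the adherens junction, and Des for the filament that the desmosome anchors. All 10 were among the 24062 gene symbols of the deposited count table, and all 10 passed the filter on low counts in every comparison.

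The study sequenced polyadenylated RNA from 12 hearts in 4 groups of 3. WT and KI/KI hearts came from 2-month-old mice, and KI/KI mice carried on both alleles, in every cell, a T-to-G change at position 38 of the Lemd2 coding sequence (c.T38>G). Lemd2-floxed and cKO hearts were taken at P1 (postnatal day 1). In cKO mice the Myh6-Cre transgene, driven by the promoter of the cardiac α-myosin heavy chain, deletes floxed Lemd2 in cardiac muscle, so other cells of the heart keep the gene. The deposited labels give no sex and no Cre-only control, so Cre and the deletion cannot be told apart.

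At a disc, cadherins of adjacent cells bind each other outside the membrane. Inside it, the desmosomal cadherins are held by plakoglobin and plakophilin to desmoplakin, which grips desmin intermediate filaments, while N-cadherin is held by β-catenin or plakoglobin to α-catenin and the actin cytoskeleton. In the newborn mouse heart these junctions lie along the sides of the myocytes, and they gather at the cell ends during the first weeks of life. Inherited loss of desmosomal proteins causes arrhythmogenic cardiomyopathy, and mutations in DES cause desmin-related myopathy.

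Des and Dsp were the only members that differed more than 2-fold between the ages. The 250 bases before each start are shown because both genes rose with age, while in cKO hearts Des rose and Dsp did not. Both runs are 5′ to 3′ on the plus strand from RefSeq (GRCm38.p6), Des at chr1:75360042-75360291 and Dsp at chr13:38151044-38151293. Capitals mark matches to the Sp1 box GGGCGG, or CCGCCC on the other strand, and to the E-box CANNTG.
Des: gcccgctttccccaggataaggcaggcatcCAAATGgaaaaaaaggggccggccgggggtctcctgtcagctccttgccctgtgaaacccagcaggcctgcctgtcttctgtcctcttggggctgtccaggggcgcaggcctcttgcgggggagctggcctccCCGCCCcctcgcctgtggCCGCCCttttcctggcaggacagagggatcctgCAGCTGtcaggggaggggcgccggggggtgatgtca
Dsp: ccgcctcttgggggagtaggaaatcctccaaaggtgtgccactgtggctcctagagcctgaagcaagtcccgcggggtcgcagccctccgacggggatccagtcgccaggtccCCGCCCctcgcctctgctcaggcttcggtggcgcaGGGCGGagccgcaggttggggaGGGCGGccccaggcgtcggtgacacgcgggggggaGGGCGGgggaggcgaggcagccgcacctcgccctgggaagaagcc
The Des run held 2 E-boxes and 2 Sp1 boxes, and the Dsp run 4 Sp1 boxes and no E-box. Of 32851 upstream runs of this length, 66.2% held an E-box and 32.7% an Sp1 box on either strand. Searches for the GATA-type AGATAA (10% of all runs), the TEAD-type CATTCC (12.6%), and the MEF2 (2.9%) and CArG (1.5%) boxes found no match in either run. The promoter table held 5 of the 10 members (Des, Dsp, Jup, Ctnna3 and Ctnnb1).

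In the files' build, GRCm38 (mm10), the genes lie on 7 chromosomes, and the coordinates below are whole gene spans from GENCODE M21, exons, introns and UTRs included. Dsp spans chr13:38151294-38198577 on the plus strand, Pkp2 chr16:16213318-16272712 on the plus strand and Jup chr11:100368958-100397763 on the minus strand. The 2 desmosomal cadherins lie in the same cadherin gene cluster of chromosome 18, Dsc2 at chr18:20030633-20059554 on the minus strand and Dsg2 at chr18:20558074-20604521 on the plus strand. Cdh2, at chr18:16588877-16809246 on the minus strand, and Ctnna1, at chr18:35118859-35254779 on the plus strand, share that chromosome. Ctnna3 covers 1573570 bases at chr10:63430098-65003667 on the plus strand, Ctnnb1 lies at chr9:120929216-120960507 on the plus strand, and Des, the shortest at 8251 bases, lies at chr1:75360329-75368579 on the plus strand. The counting is not stated to use strand. Exons of Ctnnb1 overlap those of Ulk4 on the opposite strand over 14.6% of their length, and 5 other overlaps with Dsp, Dsg2, Ctnna1, Ctnnb1 or Des covered 0.443% to 5.9% of the member's exons.

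Levels are given as CPM, a gene's reads relative to its library's depth after TMM scaling, which sets libraries to a common level from the bulk of genes. Libraries held 37063669 to 44789753 counts, and 3 counts, taken as the lowest readable level, correspond to 0.067 to 0.0809 CPM. No member came near this level: the lowest value was 18.8 CPM, for Ctnna3 in a cKO heart. Differences between groups are log2 fold changes from edgeR's quasi-likelihood test with their standard error (SE), and a gene is said to rise or fall only at an adjusted p (Benjamini-Hochberg, over all genes tested) under 0.05.

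Lemd2, the gene that was changed, fell in cKO hearts. It stood at 24.3, 25 and 25.4 CPM in floxed hearts and at 6.59, 13.1 and 11.3 CPM in cKO hearts (log2 fold change -1.27, SE 0.23, adjusted p = 0.0159). It stood in KI/KI hearts at 25.6, 25.2 and 24.8 CPM against 32, 34.8 and 32.9 in WT hearts (log2 fold change -0.39, SE 0.06, adjusted p = 0.186).

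Several libraries carried other signals that bear on the values below. Summed over 12 cardiomyocyte markers, the level was 87300 to 99600 CPM in WT, 67700 to 89700 in KI/KI, 51500 to 61600 in floxed and 46500 to 52000 in cKO hearts, with none of the 12 at 0. Myh6, the largest part of the sum, averaged 19200 CPM in floxed and 13900 CPM in cKO hearts. The 12 markers did not move together in cKO hearts: 4 fell, none rose and 5 had a positive fold change (median -0.2). KI/KI heart 5 was lowest of the adults in these markers and highest in the sum of 10 fibroblast markers, 7030 CPM against 3960 to 5190 in the other 5. Fibroblast markers summed to 6650 to 7490 CPM in floxed and 8710 to 9600 CPM in cKO hearts. Of these 10 markers, 3 rose in cKO hearts and none fell, and 6 had a positive fold change (median 0.15). Leukocyte markers summed to 178 to 289 CPM in WT, 298 to 366 in KI/KI, 66.2 to 83.2 in floxed and 102 to 156 in cKO hearts. Endothelial markers ranged over 1750 to 2360 CPM and smooth muscle markers over 1550 to 3400 CPM in the 12 hearts, and epicardial, squamous or thymic and skeletal muscle markers stayed at or under 118 CPM. Lung and airway markers, which some desmosomal genes accompany in epithelium, summed to under 5 CPM in 6 hearts and to 187 CPM in WT heart 3, 61.8 in KI/KI heart 4, 294 and 485 in floxed hearts 1 and 2, and 198 and 26.7 in cKO hearts 4 and 6. Of these 11 markers, 1 to 6 were at 0 in an adult heart and 0 to 3 in a P1 heart, and Sftpc was at 0 in all WT hearts. cKO heart 4 had 0.0798 CPM of Y-linked transcripts against 223 to 375 in the other 11 hearts. It also had 612 CPM of Xist, the transcript of the inactive X chromosome, against 0.17 to 2.02 CPM in the other 11. By these transcripts cKO heart 4 was female and the others male. In whole hearts, fewer myocytes and less RNA per myocyte cannot be told apart.

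Per kilobase of exon, which allows genes to be compared, Des led and Ctnna3 was last in all 4 groups. In adult WT hearts the means were 499 CPM per kb for Des, 353 for Dsp, 161 for Ctnna1, 116 for Ctnnb1, 70.4 for Cdh2, 53.2 for Jup, 44.7 for Pkp2, 24.8 for Dsg2, 24.5 for Dsc2 and 9.19 for Ctnna3. Each of these genes was above the next in all 3 hearts, except that Dsg2 and Dsc2 overlapped. KI/KI hearts had this order too. At P1 the junction genes ranked differently. In floxed hearts Ctnna1, Dsp and Ctnnb1 stood at 134, 133 and 126 CPM per kb with overlapping hearts, and Pkp2 at 35.2 overlapped with Jup at 30.8. In cKO hearts Dsp, at 112 CPM per kb, lay below Ctnna1 (143) and Ctnnb1 (142) in every heart, and Pkp2 at 36.4 above Jup at 26.3. The order of genes at close levels rests on the length used. Per kilobase of the longest coding transcript, a length chosen after seeing the data, Ctnna1 (231), Ctnnb1 (180) and Dsp (133) of floxed hearts each lay above the next in every heart. By that length Cdh2 (117) and Jup (107) overlapped in WT hearts, and Dsg2 (35.6) lay above Dsc2 (27.9). The mean of Des was still first and that of Ctnna3 last in each group. Des (256) overlapped with Ctnna1 in floxed hearts, however, and Dsc2 (11.5) with Ctnna3 (7.16) in cKO hearts. The transcripts of the α-catenin found mainly in heart and testis, Ctnna3, were therefore far fewer per length than those of the general α-catenin Ctnna1 in every group.

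**Figure D1:**
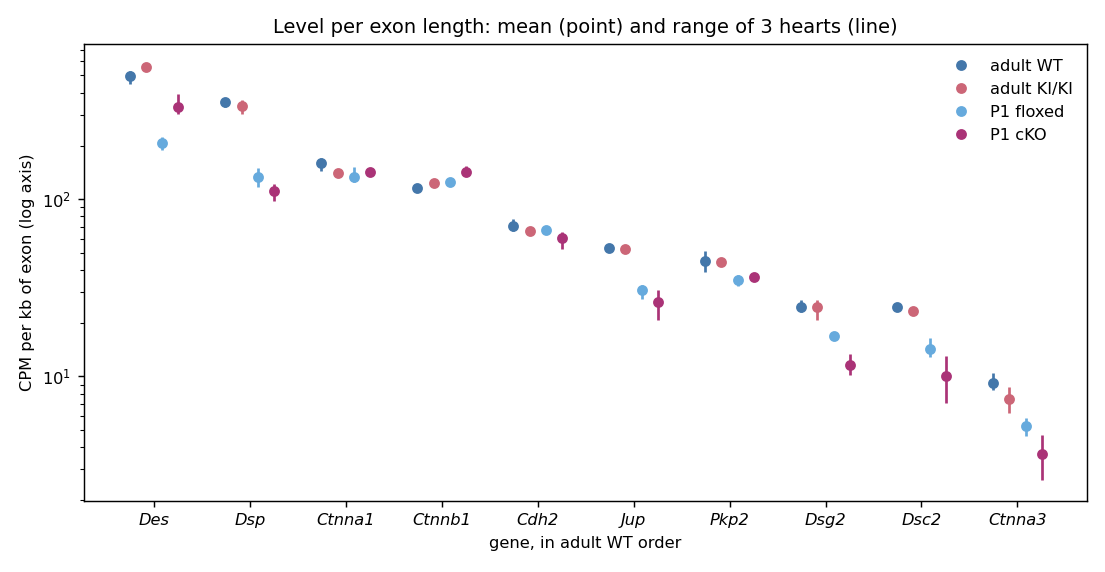
Mean CPM per kilobase of exon (vertical log axis) for each gene, ordered by adult WT level, with a point for each of the 4 groups and a line for the range of its 3 hearts. Des lies highest and Ctnna3 lowest in all groups, and Dsp falls from clearly above Ctnna1 in adult hearts to the same level or below it at P1.

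The comparison of adult KI/KI with WT hearts asks whether the junction genes differ in the knockin heart. None of the 10 members rose or fell. Nor did any other gene with edgeR, which called 0% of the 14592 genes tested higher and 0% lower, while 2331 of them (16%) had an unadjusted p under 0.05, and DESeq2 called 306 genes higher and 212 lower. None of the 10 members was among those 2331 genes, and DESeq2 called none of the 10. The members' median log2 fold change was -0.04, beside 0 over all genes, and 3 of the 10 were positive.

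Among the plaque proteins, desmoplakin (Dsp), which links the plaque to desmin, stood at 3440, 3570 and 3210 CPM in WT and 3520, 2930 and 3340 CPM in KI/KI hearts. The low heart is KI/KI heart 5, and the groups overlap (log2 fold change -0.06, 95% interval -0.31 to 0.19). Plakophilin-2 (Pkp2), which clusters the plaque, stood at 273, 238 and 208 CPM in WT and 247, 228 and 240 CPM in KI/KI hearts, with the KI/KI hearts inside the WT range (0.00, interval -0.23 to 0.23). Plakoglobin (Jup), shared by both junctions, stood at 356, 335 and 336 CPM in WT and 340, 351 and 325 CPM in KI/KI hearts (-0.01, interval -0.17 to 0.14). For these 3 genes the intervals span folds of 0.808 to 1.17.

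The desmosomal cadherins were as close. Desmoglein-2 (Dsg2) stood at 222, 190 and 204 CPM in WT and 224, 173 and 219 CPM in KI/KI hearts (0.00, interval -0.26 to 0.27), again lowest in KI/KI heart 5. Desmocollin-2 (Dsc2) stood at 133, 132 and 123 CPM in WT and 122, 122 and 127 CPM in KI/KI hearts (-0.07, interval -0.19 to 0.06). Both genes overlapped between the genotypes.

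Of the adherens junction genes, the α-catenins had the lowest fold changes and did not pass the test. Ctnna3 stood at 76, 63 and 60.3 CPM in WT and 62.9, 45.1 and 54.7 CPM in KI/KI hearts (-0.29, SE 0.13, adjusted p = 0.347), with KI/KI heart 5 lowest. Ctnna1 stood at 1080, 1090 and 924 CPM in WT and 939, 880 and 892 CPM in KI/KI hearts (-0.18, SE 0.09, adjusted p = 0.35). A single heart of each genotype made these groups overlap. N-cadherin (Cdh2), the classical cadherin of the disc, stood at 627, 539 and 537 CPM in WT and 560, 521 and 530 CPM in KI/KI hearts (-0.08, interval -0.27 to 0.12). β-catenin (Ctnnb1), which binds N-cadherin and also carries Wnt signals, stood at 584, 626 and 603 CPM in WT and 619, 679 and 635 CPM in KI/KI hearts (0.10, interval -0.08 to 0.28).

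Desmin (Des) was the single member whose genotypes did not overlap. It stood at 1950, 2000 and 1670 CPM in WT and 2020, 2080 and 2160 CPM in KI/KI hearts, so that every KI/KI heart was higher, by a small margin (0.16, SE 0.10, adjusted p = 0.43). Over all genes tested, 21.8% did not overlap in this comparison, so 1 of 10 is below the background.

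**Figure D2:**
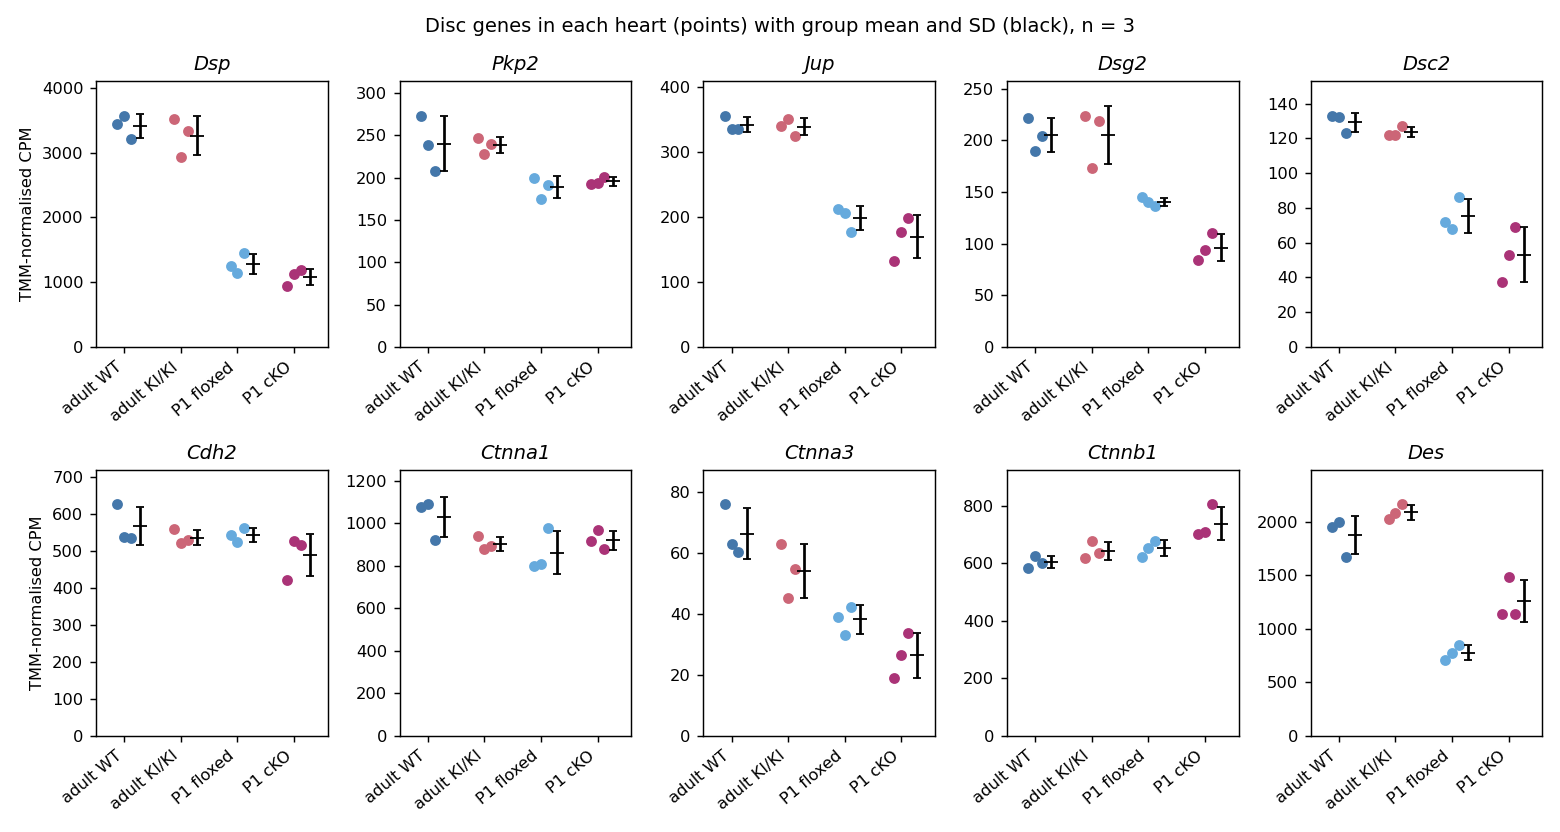
TMM-normalised CPM (vertical axes from 0, a scale for each gene) of the 10 genes in every heart, with points for hearts and black marks for the mean and SD of each group (n = 3). Adult WT and KI/KI hearts overlap for every gene but Des; at P1, cKO hearts lie below floxed hearts for Dsg2 and above them for Des and Ctnnb1.

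At P1, the comparison of cKO with floxed hearts asks what loss of Lemd2 in cardiac muscle does to the same genes. Des rose and Dsg2 fell, and the other 8 did not pass the test. Among the 15317 genes tested, 9.15% rose and 7.31% fell, so 1 member of 10 in each direction is near the background. With factors from the upper quartile of counts, the calls over all genes split into 1172 higher and 1418 lower in place of 1401 and 1119, and with scaling to the cardiomyocyte markers into 3310 and 388. The members' median log2 fold change was -0.20, beside 0 over all genes, and 4 of 10 were positive.

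Des stood at 708, 773 and 846 CPM in floxed and at 1140, 1480 and 1140 CPM in cKO hearts. Every cKO heart lay above every floxed heart, with cKO heart 5 highest (log2 fold change 0.69, SE 0.13, adjusted p = 0.0185). Dsg2 stood at 145, 140 and 137 CPM in floxed and at 84.3, 93.9 and 110 CPM in cKO hearts. Every cKO heart lay below every floxed heart (log2 fold change -0.55, SE 0.10, adjusted p = 0.0157). The 3 floxed hearts agree closely for Dsg2, with a mean of 140 CPM ± 4.13 (SD, n = 3). Their lung and airway markers summed to 2.88 to 485 CPM. With the lung markers as a covariate Dsg2 was at -0.55 (adjusted p = 0.026) and Des at 0.64 (adjusted p = 0.0224).

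Both calls rested on 3 of the 6 hearts. They were lost without floxed heart 1 (Dsg2 -0.53, adjusted p = 0.0879, and Des 0.62, adjusted p = 0.107), without floxed heart 2 (Dsg2 -0.56, adjusted p = 0.0617, and Des 0.68, adjusted p = 0.0804) and without cKO heart 5 (Dsg2 -0.53, adjusted p = 0.0746, and Des 0.56, adjusted p = 0.0581), and kept without floxed heart 3, cKO heart 4 or cKO heart 6. Calls over all genes also shrank, from 2520 to 129, 623 and 482 without those 3 hearts. Scaled to the cardiomyocyte markers, Dsg2 was at -0.33 (adjusted p = 0.0805) and Des at 0.91 (adjusted p = 0.00309).

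Dsc2 and Ctnna3 had fold changes of the size of Dsg2, with a wider spread among hearts. Dsc2 stood at 71.9, 68.1 and 86.5 CPM in floxed and 37.2, 53 and 69.2 CPM in cKO hearts (-0.51, SE 0.20, adjusted p = 0.127). Ctnna3 stood at 39.1, 33.1 and 42.3 CPM in floxed and 18.8, 26.6 and 33.7 CPM in cKO hearts (-0.54, SE 0.20, adjusted p = 0.104). For both genes cKO heart 4 was lowest and cKO heart 6 overlapped with the floxed hearts. Without cKO heart 6, Dsc2 was at -0.74 (adjusted p = 0.0275) and Ctnna3 at -0.75 (adjusted p = 0.0267), and 3 members fell in place of 1.

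The plaque genes did not pass the test. Dsp stood at 1250, 1140 and 1450 CPM in floxed and 945, 1120 and 1180 CPM in cKO hearts (-0.24, SE 0.12, adjusted p = 0.194). Jup stood at 212, 206 and 177 CPM in floxed and 133, 177 and 198 CPM in cKO hearts (-0.24, SE 0.15, adjusted p = 0.289). Both overlapped between the genotypes. Pkp2, at 200, 175 and 191 CPM in floxed and 192, 193 and 201 CPM in cKO hearts, differed least of the 10 (0.05, interval -0.13 to 0.23).

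Among the widely expressed adherens junction genes, Ctnnb1 was the third member without overlap. It stood at 624, 655 and 679 CPM in floxed and 702, 710 and 806 CPM in cKO hearts (0.18, SE 0.08, adjusted p = 0.169). Cdh2 stood at 544, 524 and 564 CPM in floxed and 423, 528 and 517 CPM in cKO hearts (-0.16, interval -0.38 to 0.07), with cKO heart 4 apart from the other 5. Ctnna1 stood at 800, 809 and 980 CPM in floxed and 917, 969 and 878 CPM in cKO hearts (0.09, interval -0.15 to 0.34). In all, 3 of 10 members did not overlap, beside 39% of all genes tested.

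The cKO hearts were unlike one another. Heart 4 was the lowest of its group for 8 of the 10 members, all but Des and Ctnna1, and heart 6 the highest for 7. Heart 4 also had the lowest Lemd2 and the lowest sum of cardiomyocyte markers, the highest lung marker sum of the 3, and nearly no Y-linked transcripts. The part of each of these in the members' levels was not tested one by one. Des and Dsg2 kept their calls with Y-linked transcripts as a covariate and when heart 4 was left out.

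**Figure D3:**
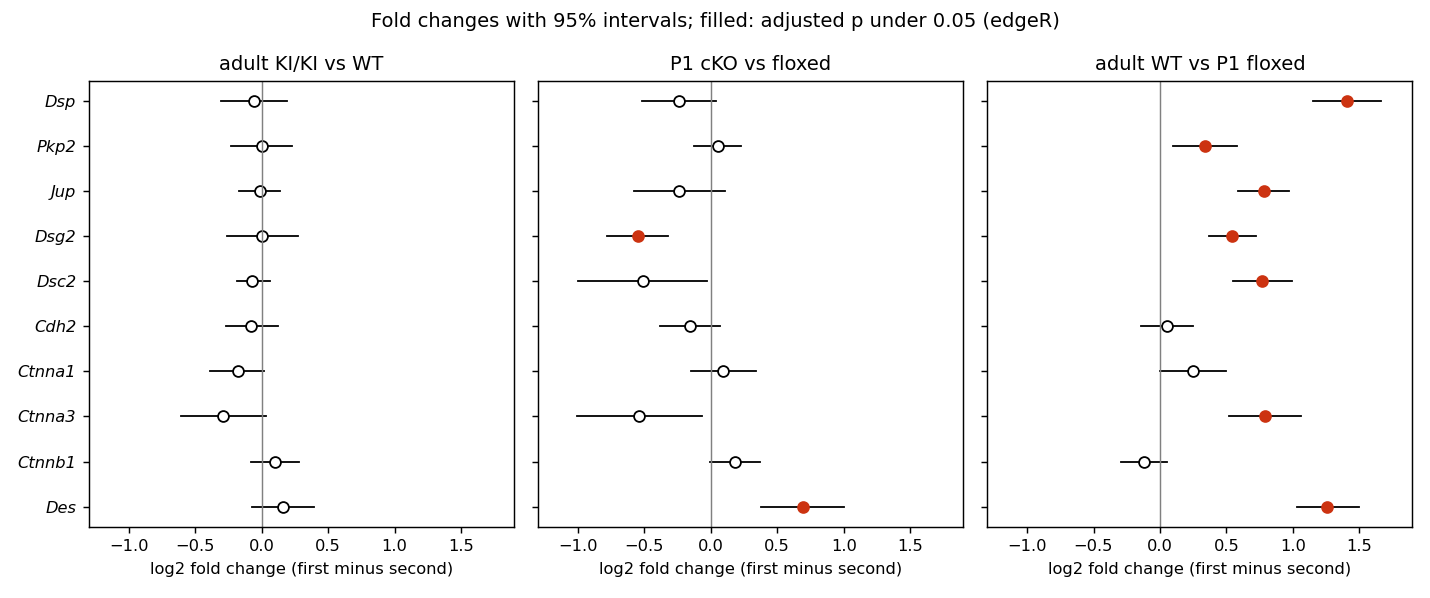
Log2 fold changes with 95% intervals (horizontal axis, first group minus second) of the 10 genes in the 3 comparisons, filled where the adjusted p from edgeR is under 0.05. No gene is filled for KI/KI, Dsg2 (-0.55) and Des (0.69) are filled for cKO, and 7 genes are filled for adult WT against P1 floxed, all above 0.

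The 2 models were also set against each other, in one fit of all 12 hearts that tests the KI/KI effect minus the cKO effect. No member passed with edgeR, which called 2.51% of 15729 genes. The difference was 0.54 for Dsg2 (SE 0.16, adjusted p = 0.099) and -0.54 for Des (SE 0.17, adjusted p = 0.119), and 2 members had an unadjusted p under 0.05. DESeq2 called both, at 0.52 (adjusted p = 0.047) for Dsg2 and -0.56 (adjusted p = 0.0257) for Des. Leaving out KI/KI heart 5 or cKO heart 6 brought Dsg2 to 0.65 with adjusted p = 0.0429 and 0.0366. The other 8 members had an adjusted p of 0.286 or more, and no member had all hearts of one model above and all hearts of the other below their controls.

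The third comparison, adult WT against P1 floxed hearts, sets the junction genes of the grown heart against those of the newborn heart. Age goes with the floxed allele and with the litters and libraries, which cannot be told apart. These are also the control hearts of the 2 comparisons above. Relative to the bulk of genes, 7 members were higher in adult hearts and none lower, beside 31.4% of 15183 genes higher and 33.3% lower. The members' median log2 fold change was 0.66, beside -0.04 over all genes, and 9 of 10 were positive.

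The desmosome and desmin account for 6 of the 7. Dsp rose from 1140 to 1450 CPM at P1 to 3210 to 3570 CPM in adults (log2 fold change 1.41, SE 0.11, adjusted p = 1.85e-05), and Des from 708 to 846 CPM to 1670 to 2000 CPM (1.26, SE 0.10, adjusted p = 2.31e-05). Jup (0.78, SE 0.08, adjusted p = 9.56e-05), Dsc2 (0.77, SE 0.10, adjusted p = 0.000221) and Dsg2 (0.54, SE 0.07, adjusted p = 0.000372) rose by less than 2-fold. Pkp2 rose least (0.34, SE 0.10, adjusted p = 0.0194), and its call was lost without WT heart 1 (0.25, adjusted p = 0.0746), WT heart 2 (0.35, adjusted p = 0.0543) or floxed heart 2 (0.28, adjusted p = 0.0712) and with the lung markers as a covariate (0.26, adjusted p = 0.0623).

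The adherens junction genes divided. Ctnna3, the seventh gene, rose by 0.79 (SE 0.12, adjusted p = 0.000542). The widely expressed Cdh2 (0.05, interval -0.14 to 0.25), Ctnna1 (0.25, adjusted p = 0.0735) and Ctnnb1 (-0.12, interval -0.29 to 0.05) did not pass. Ctnna1 passed with DESeq2 (0.28, adjusted p = 0.0264), without WT heart 3 (0.34, adjusted p = 0.0228) and without floxed heart 3 (0.36, adjusted p = 0.0111). The 7 members that rose were also those whose age groups did not overlap, beside 70.8% of all genes tested.

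These directions depend on the scale. The cardiomyocyte markers rose with age themselves, 9 of 12 with a median of 0.65, and scaling to them moved the median of all genes to -1.01 and the calls over all genes from 4775 higher and 5051 lower to 1246 and 11199. On that scale Dsp (0.44, adjusted p = 0.000204) and Des (0.29, adjusted p = 0.00291) were still higher in adults, while Pkp2 (-0.64), Dsg2 (-0.43), Cdh2 (-0.92), Ctnna1 (-0.72) and Ctnnb1 (-1.08) were lower and Jup (-0.20), Dsc2 (-0.19) and Ctnna3 (-0.18) did not pass. Relative to the median of all genes on that scale, the members ran from 1.45 for Dsp and 1.30 for Des to -0.07 for Ctnnb1. In the KI/KI and cKO comparisons the same scaling moved the median of all genes to 0.23 and 0.22. It turned the sign of 6 members in KI/KI hearts and of Cdh2 in cKO hearts, and there Ctnna1 (0.32, adjusted p = 0.0428) and Ctnnb1 (0.40, adjusted p = 0.0248) passed.

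**Figure D4:**
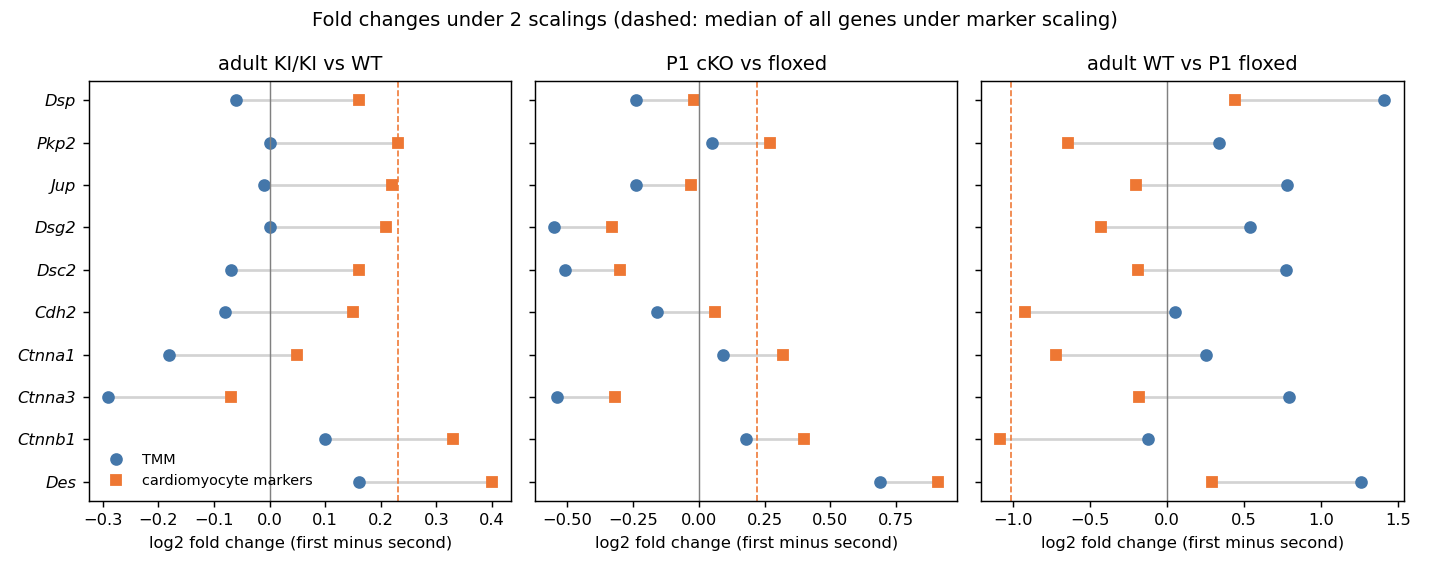
Log2 fold change (horizontal axis, first group minus second, a scale for each panel) of the 10 genes under TMM scaling (circles) and under scaling to 12 cardiomyocyte markers (squares), with the median of all genes under the second as a dashed line. In adult WT against P1 floxed hearts only Dsp and Des stay above 0 under both, and in cKO hearts Des, Pkp2, Ctnna1 and Ctnnb1 stay above 0 and Dsg2, Dsc2, Ctnna3, Dsp and Jup below it, while Cdh2 changes sign.

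Ratios of reads within a heart do not depend on such scaling, and with 3 hearts a group the smallest exact permutation p (two-sided) is 0.1. Desmin reads per 100 desmoplakin reads averaged 54.9 ± 2.58 (SD, n = 3) in WT, 64.4 ± 6.8 in KI/KI, 61 ± 6.06 in floxed and 116 ± 18.7 in cKO hearts. All KI/KI hearts were above all WT hearts and all cKO hearts above all floxed hearts (exact p = 0.1 each). The control groups of the 2 ages overlapped in this ratio (exact p = 0.2).

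Within the plaque, Pkp2 reads per 100 Dsp reads were 14.8 ± 1.48 in floxed and 7.03 ± 0.781 in adult WT hearts, with no overlap (exact permutation p = 0.1), and 18.2 ± 1.82 in cKO hearts, all above floxed (exact p = 0.1). Dsg2 reads per 100 Dsp reads were 11.1 ± 1.5 in floxed, 8.88 ± 0.464 in cKO and 6.05 ± 0.623 in WT hearts, also without overlap between floxed hearts and either other group (exact permutation p = 0.1 each). Dsc2 reads per 100 Dsp reads were 5.9 ± 0.119 in floxed and 4.84 ± 0.958 in cKO hearts, which overlapped (exact p = 0.2), and 3.8 ± 0.0853 in WT hearts, all below floxed (exact p = 0.1). The pair of desmosomal cadherins did not separate any groups. Dsg2 reads per 100 Dsc2 reads averaged 159 in WT, 167 in KI/KI, 188 in floxed and 188 in cKO hearts, and each comparison overlapped.

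The 3 other ratios set a gene enriched in heart or in the desmosome against a widely expressed one. Dsg2 reads per 100 Cdh2 reads, the desmosomal against the classical cadherin, averaged 36.3 ± 1.56 in WT, 25.8 ± 1.42 in floxed and 19.7 ± 1.79 in cKO hearts, with all adult WT hearts above and all cKO hearts below the floxed hearts. Jup reads per 100 Ctnnb1 reads, a pair of related armadillo proteins that bind cadherin tails, averaged 56.7 ± 3.81 in WT, 30.5 ± 4.01 in floxed and 22.8 ± 3.36 in cKO hearts. Ctnna3 reads per 100 Ctnna1 reads averaged 6.45 ± 0.612, 4.44 ± 0.408 and 2.88 ± 0.902 in those groups. Each of these 3 ratios separated both pairs of groups (exact permutation p = 0.1), and for each the WT and KI/KI hearts overlapped. The share of all gene pairs that would separate in this way was not computed. Of single genes, 39% did so between cKO and floxed hearts and 70.8% with age. All these ratios reuse the members' counts given above, so they are not separate results.

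**Figure D5:**
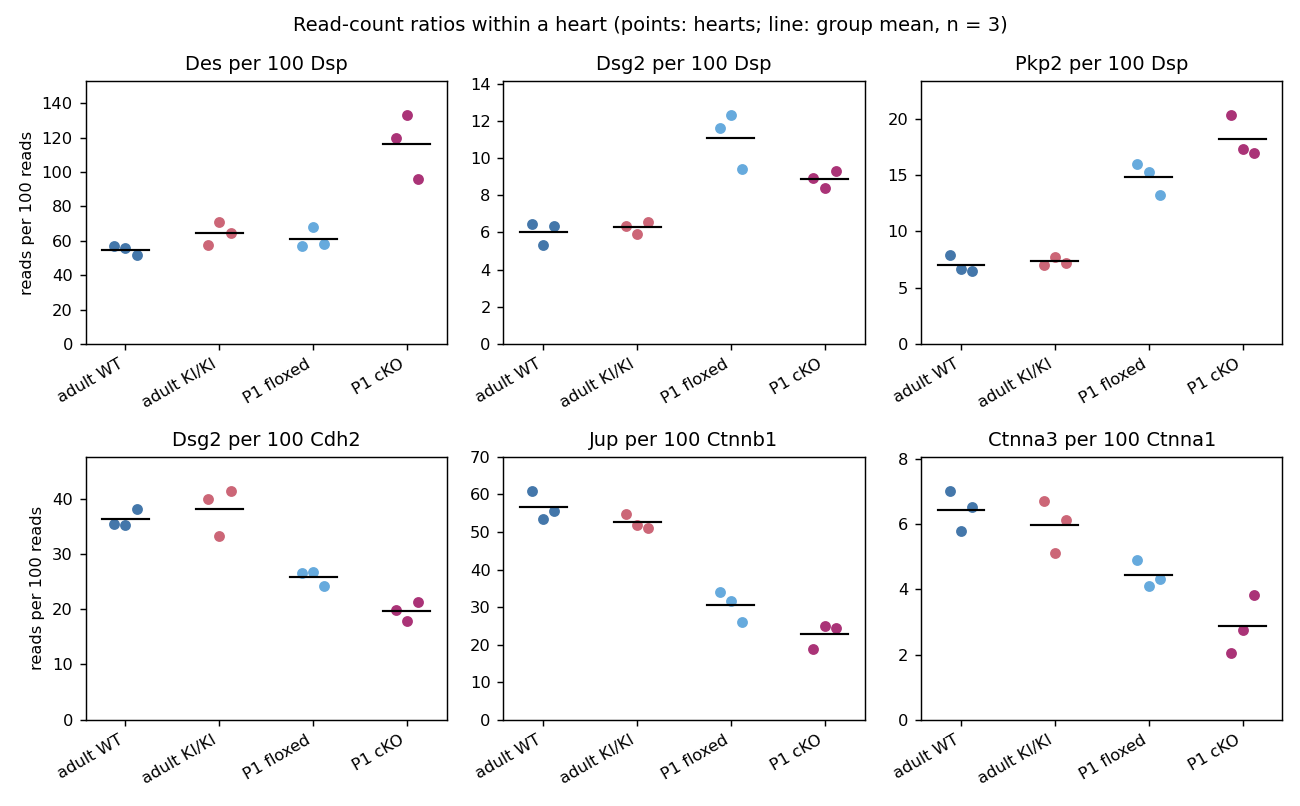
Reads of one gene per 100 reads of another in the same heart (vertical axes from 0) for 6 pairs, with a point for each heart and a line for the group mean (n = 3). Des per 100 Dsp is highest in cKO hearts (mean 116), and the ratios of Dsg2 to Cdh2, Jup to Ctnnb1 and Ctnna3 to Ctnna1 are lowest there.

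Across the 12 hearts, likeness of pattern was measured as the root mean square difference of log2 CPM after centring each gene, over 11120 genes with a mean of at least 5 CPM. Nearest to Dsp were Dynll2 (0.0769), Fem1a (0.0802) and C330018D20Rik (0.0803), where the median gene was at 0.798. Nearest to Pkp2 were Hdac10 (0.0755), Vps41 (0.0784) and Emc1 (0.0801), where the median gene was at 0.362. Nearest to Des were Csrp3 (0.104), Inpp5a (0.122) and Rusc2 (0.125), where the median gene was at 0.636. Among the members, the closest pairs were Cdh2 with Ctnna1 (0.144), Dsc2 with Ctnna3 (0.152) and Pkp2 with Ctnna1 (0.153), while Des had no member nearer than Jup (0.384). Hearts of one group share age and genotype.

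The wider set of disc genes was read from 5 lists. Desmosomal genes outside the 10 were mostly at low levels, and 7 of 13 passed the filter at P1. Pkp4, a plakophilin relative, rose in cKO hearts from 213 CPM ± 24.5 to 280 ± 31.4 (0.39, SE 0.11, adjusted p = 0.0495, lost with RLE factors at 0.39, adjusted p = 0.0547, with upper quartile factors at 0.34, adjusted p = 0.0618, without a filter and with either covariate). With age, periplakin (Ppl) rose from 6.71 CPM ± 2.36 to 28 ± 3.46 (2.05, adjusted p = 0.000175), while the junction protein Perp fell (-0.55, adjusted p = 0.00092) and envoplakin (Evpl) fell from 2.33 to 1.33 CPM (-0.81, adjusted p = 0.0204). No gene of the list passed in KI/KI hearts, with Perp at 0.14 (adjusted p = 0.464) and Pkp4 at 0.09 (adjusted p = 0.514).

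Of 23 other adherens junction and actin-anchor genes tested at P1, 6 rose and none fell in cKO hearts, beside 9.15% and 7.31% of all genes, and the median was 0.17. The actin-binding repeat protein Xirp2 rose from 29 CPM ± 6.47 to 214 ± 83.1 (2.87, SE 0.29, adjusted p = 0.0056). Muscle LIM protein (Csrp3) rose from 414 CPM ± 30.2 to 741 ± 87.7 (0.84, SE 0.10, adjusted p = 0.00688). It was found nearest to Des above from these same hearts, so its rise beside that of Des is not a separate result. Zyxin (Zyx) at 0.80 (adjusted p = 0.011) and the adaptor Sorbs2 at 0.64 (adjusted p = 0.0217) rose too. In KI/KI hearts Xirp2 was at 2270 CPM ± 360 against 1470 ± 116 in WT (0.64, adjusted p = 0.201), and the cadherin Cdh4 at 1.34 (adjusted p = 0.24). No gene passed with edgeR, while DESeq2 called both of these higher. With age 6 of 23 rose and 10 fell, beside 31.4% and 33.3% of all genes, among them Xirp2 (5.65, adjusted p = 6.33e-07) and Csrp3 (1.48, adjusted p = 1.03e-05) up, and the mesenchymal cadherin Cdh11 (-2.90, adjusted p = 3.02e-06) and p120-catenin, Ctnnd1 (-0.98, adjusted p = 1.2e-05), down.

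Of 18 gap junction, channel and membrane genes, 3 rose and 4 fell in cKO hearts, beside 9.15% and 7.31% of all genes. Connexin-40 (Gja5), a gap junction protein of the atria and conduction system, fell from 115 CPM ± 15.1 to 44.7 ± 8.89 (-1.36, SE 0.18, adjusted p = 0.00793). The inward rectifier channel Kcnj2 (-1.26, adjusted p = 0.0205) and ankyrin-B, Ank2 (-0.70, adjusted p = 0.0179), fell, and galectin-3 (Lgals3), also abundant in macrophages, rose from 3.61 to 13.7 CPM (1.93, adjusted p = 0.0127). The part of leukocytes, whose marker sum was also higher in cKO hearts, was not tested. None passed with edgeR in KI/KI hearts, with Popdc3 at 0.50 (adjusted p = 0.203) and Lgals3 at 2.50 (SE 0.61, adjusted p = 0.212). DESeq2 called both higher. With age 9 rose and 5 fell, beside 31.4% and 33.3% of all genes, among them the disc membrane protein Tmem65 (1.29, adjusted p = 1.86e-05) up, and connexin-45, Gjc1 (-1.21, adjusted p = 1.92e-05), and the Popeye protein Bves (-1.29, adjusted p = 6.88e-05) down.

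Of 16 partners of desmin, 6 rose and 1 fell in cKO hearts, beside 9.15% and 7.31% of all genes, and the median was 0.39. Synemin (Synm), an intermediate filament protein that assembles with desmin, rose from 11.2 CPM ± 3.32 to 59.9 ± 25 (2.42, SE 0.39, adjusted p = 0.0121), and nestin (Nes) from 106 CPM ± 22.5 to 225 ± 39.8 (1.09, adjusted p = 0.0122). The nuclear lamin gene Lmna (0.70, adjusted p = 0.00902) and vimentin, Vim (0.46, adjusted p = 0.0201), which fibroblasts and endothelium express, rose too. The fibroblast marker sum was higher in every cKO heart. Of its 10 markers 3 rose and none fell, and 6 had a positive fold change. The part of fibroblasts was not tested. None passed with edgeR in KI/KI hearts, with the cytolinker Plec at -0.21 (adjusted p = 0.268) and the chaperone Dnajb6 at 0.21 (adjusted p = 0.273). DESeq2 called Plec lower. With age 8 rose and 3 fell, beside 31.4% and 33.3% of all genes, among them the desmin chaperones αB-crystallin, Cryab (1.94, adjusted p = 1.89e-06), and Bag3 (1.94, adjusted p = 6.54e-06) and syncoilin, Sync (2.89, adjusted p = 7.89e-06), up, and Vim (-1.33, adjusted p = 1.04e-05) down.

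Feedback targets of β-catenin, which reports on the signalling pool of Ctnnb1, were at low levels. In cKO hearts 1 of 11 rose and 1 fell, beside 9.15% and 7.31% of all genes. The ubiquitin ligase Znrf3 fell from 23.3 CPM ± 1.72 to 16.5 ± 1.06 (-0.50, SE 0.10, adjusted p = 0.0196). The other was Sp5, at 0.14 CPM in floxed and 0.898 CPM in cKO hearts, which passed the filter only through the cKO hearts. Among the 8 genes with at least 10 counts in every library, Znrf3 fell and none rose. With age 7 of 10 fell and none rose, with a median of -1.11, beside 31.4% of all genes higher and 33.3% lower. Axin2, named after its values were seen, went the other way, at 8.42 CPM in adult WT and 6.23 CPM in floxed hearts. It did not pass in the main test. It was called higher with DESeq2, with RLE factors and without WT heart 1, and lower under scaling to the cardiomyocyte markers. The Wnt effector Lef1, at 0.253 CPM in adults, was 1 of the 7, and of the 8 genes with at least 10 counts in every library 6 fell, among them Nkd1 (-1.52, adjusted p = 0.000129), Apcdd1 (-1.10, adjusted p = 0.000462) and Znrf3 (-0.82, adjusted p = 0.000164), while Ctnnb1 itself was at -0.12. None of 9 passed with edgeR in KI/KI hearts, with Nkd2 at 1.48 (adjusted p = 0.26) and Znrf3 at -0.22 (adjusted p = 0.317). DESeq2, unlike edgeR, called genes of these lists in KI/KI hearts, beside 306 higher and 212 lower of all 14555 genes. Higher were 2 of 24 adherens junction genes, Xirp2 (DESeq2 adjusted p = 0.000727) and Cdh4 (0.0231). So were 2 of 18 gap junction and channel genes, Popdc3 (0.0148) and Lgals3 (0.0187), and 1 of 11 β-catenin targets, Nkd2 (0.0348). Lower was 1 of 16 desmin partners, Plec (0.032).

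The counts in cKO hearts rest on the hearts named above. Without floxed heart 1 the called genes shrank to Xirp2 alone among the adherens junction genes and to none in the other 4 lists. Under scaling to the cardiomyocyte markers the named cKO calls kept their direction, Znrf3 not passing there (-0.28, adjusted p = 0.129). In cKO hearts 12 of 23 adherens junction genes and 8 of 16 desmin partners then rose with none lower. Over all 15317 genes that scale gave 3310 higher and 388 lower. With age on that scale the named genes kept their direction, apart from Axin2. Of 23 adherens junction genes 3 were then higher and 17 lower, and of 18 gap junction and channel genes 3 and 13. Of 16 desmin partners 6 were higher and 9 lower. The bulk of genes turned likewise, with 1246 higher and 11199 lower of 15183.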

How the data were processed

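The authors used Trim Galore for trimming, STAR 2.7.2b for alignment to mm10, SAMtools 1.9 for sorting and HTSeq for counting. The deposited values are whole-number counts, without normalization. The counting's strand setting is not given in the sources used here. CPM over 12 hearts, fits of each comparison's own 6 hearts (TMM, filterByExpr, robust quasi-likelihood) and Benjamini-Hochberg adjustment were computed in R 4.3.3 with edgeR 4.0.16. limma 3.58.1 (voom) and DESeq2 1.42.0 were alternatives. Intervals use the test's moderated degrees of freedom.

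The 10 members, the lists and the tests were chosen with earlier results of these data known. All members and Lemd2 are named. From each list up to 4 called genes with the smallest adjusted p are named, or, where none passed, up to 2 with the smallest p. The 3 nearest genes of Dsp, Pkp2 and Des are named also. A gene that this rule names is not reported here. No pair of replicates held identical counts. P-values from edgeR set the difference between groups against the spread between mice, 3 a group, which is moderated across genes. Scripts were tested on simulated counts.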

Additional observations from a re-analysis of the deposited data

How the results depend on the processing

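The alternatives were other tools (DESeq2, limma-voom), other scaling (RLE, upper quartile, cardiomyocyte markers), other filters, one fit of 12 hearts, non-robust dispersion, Y-linked and lung marker covariates (the latter chosen after seeing the data, as was the transcript length for levels per kilobase), the replicate block and each heart left out. In KI/KI hearts no member passed under any of them, while DESeq2 called 518 genes in all, one fit of 12 hearts 27 and the main test 0. Changes of sign there were at values near 0: Dsg2 at 0.00 with DESeq2, RLE factors, no filter and one fit, and Pkp2 at 0.00 with upper quartile factors, at least 10 counts in every library and limma-voom, and at 0.01 with the Y-linked covariate. Scaling to the cardiomyocyte markers turned Dsp to 0.16, Pkp2 to 0.23, Jup to 0.22, Dsc2 to 0.16, Cdh2 to 0.15 and Ctnna1 to 0.05 in KI/KI hearts and Cdh2 to 0.06 in cKO hearts, where it gave 3 members higher and 0 lower. In adult WT against P1 floxed hearts it gave 2 higher and 5 lower, with Pkp2 at -0.64, Jup at -0.20, Dsg2 at -0.43, Dsc2 at -0.19, Cdh2 at -0.92, Ctnna1 at -0.72 and Ctnna3 at -0.18. This follows from the scale, which moved the median of all genes as given above.

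One fit of 12 hearts gave 2 members lower in cKO hearts (Dsc2 at -0.51, adjusted p = 0.0499). Upper quartile factors gave 1 member lower in adults (Ctnnb1 at -0.19, adjusted p = 0.028) and Cdh2 at -0.02. DESeq2 gave 2 members whose effect differed between the models. With each heart left out in turn, the members called ranged from 0 to 1 higher and 0 to 3 lower in cKO hearts, from 6 to 8 higher and 0 lower in adults, and from 0 to 1 between the models. Fold changes that crossed 0 ranged from -0.12 to 0.01 for Dsp, -0.09 to 0.09 for Pkp2, -0.04 to 0.02 for Jup and -0.06 to 0.11 for Dsg2 in KI/KI hearts, from -0.01 to 0.09 for Pkp2 in cKO hearts, from -0.01 to 0.11 for Cdh2 with age, and from -0.15 to 0.04 for Pkp2 and -0.02 to 0.15 for Cdh2 between the models. Over all genes, calls ranged from 129 to 3385 in cKO hearts, 8846 to 9858 with age, 0 to 52 in KI/KI hearts and 50 to 935 between the models. The Y-linked covariate gave 1618 in cKO hearts, against 2520, one fit of 12 hearts gave 3871, and DESeq2 gave 1323 between the models, against 395.

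KI/KI and WT hearts, and cKO and floxed hearts, share no replicate numbers, so no paired analysis was possible because nothing links them. WT and floxed hearts share numbers 1 to 3, but same-numbered hearts deviated together by correlations of 0, -0.13 and -0.17 only. The replicate block left 7 members higher and 0 lower, changed no member's call, and gave 8966 calls over all genes, against 9826. Between the models it gave 0 members and 0 genes, against 395. The causes of these changes were not tested. At 37063669 counts or more every member was far above the floor.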
